A study of Mus musculus with 4 samples.

Results

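The genes described here are 9 small secreted or membrane-anchored chemokines: the neutrophil attractants Cxcl1, Cxcl2 and Cxcl5, and Pf4, Cxcl12, Cxcl13, Cxcl14, Cxcl16 and Cx3cl1. They were taken as every probe set whose platform annotation gives exactly 1 of these symbols, which found 15 probe sets for 9 of 9 genes, out of 20380 probe sets that name 12393 genes. Cx3cl1 belongs to the CX3C family and not to the CXC family, and is kept under its own name.

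The samples were 4 dishes labelled as synovial fibroblasts, the connective tissue cells that line a joint, with 1 array and 1 dish per treatment. Per the labels, the cells were isolated from the knees of male DBA/1J naive mice, aged 8 to 12 weeks, and were passaged 3 to 4 times before being placed in medium with 1% heat-inactivated serum. The vehicle dish received none of the agents. The other 3 dishes received IL-1β, a cytokine of joint inflammation, at 5 ng/ml, either alone, with 1 µM indomethacin, or with 1 µM indomethacin and 1 µM iloprost. RNA was taken at 6 h. In the values that follow, indomethacin was always given with IL-1β, and iloprost with both. Indomethacin blocks the cyclooxygenases and so the synthesis of prostanoids. Iloprost is a longer-lived mimic of the prostanoid prostacyclin. The title of the series asks what prostacyclin signalling does to such activated cells. Iloprost with IL-1β in the absence of indomethacin is not analysed here. Whether cells of several mice were pooled is not stated in the labels.

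CXC chemokines are named for a pair of cysteines separated by 1 residue near the start of the protein. Those with the Glu-Leu-Arg motif before these cysteines, among them Cxcl1, Cxcl2 and Cxcl5, bind the receptor Cxcr2 and draw neutrophils into tissue, and inflamed joints are a well-known setting for this. Their genes respond quickly to IL-1 through NF-κB. Other members serve standing functions, such as the stromal factor Cxcl12, which holds Cxcr4-bearing cells in place, and Cxcl13, which organises B cells.

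The array signals were deposited on a linear scale. The middle value of the whole table, 37.6, served as a floor, and signals no higher than it were treated as not measured above background, and between 48.8% and 51.2% of probe sets were above it on each array. Log2 ratios are given relative to the median gene, because the arrays differed in overall brightness: over the 6222 genes that passed the floor in all 4 dishes, the median was higher by 0.23 on the log2 scale with IL-1β than with vehicle. With 1 array per treatment there is no spread between dishes and no test, and every difference describes these dishes alone. The only error available is that between probe sets of the same gene, which had an SD of 0.20 to 0.22 in log2 ratio and holds no difference between dishes. Levels of the chemokines are compared between treatments for 1 probe set at a time, and not from gene to gene.

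Markers of the labelled cells and of others were checked. All 14 fibroblast markers were above the floor on every array, Col3a1 and Vim among them. Of 18 macrophage markers 16 were above the floor on every array, Lyz2 and Cd14 among them, and 2, Cd163 and Mertk, were below it on all 4. Of 11 endothelial markers 1 was above the floor (Eng), and the defining Pecam1, Cdh5 and Vwf gave signals between 0.8 and 8.9. No lymphocyte marker was above the floor, and of 10 neutrophil markers with a probe set 3 were above it on at least 1 array (S100a8, Camp and Csf3r). The granule genes Mpo, Elane and Ltf, the calprotectin subunit S100a9 and the receptor Cxcr2 were below it on every array. The labels name fibroblasts only, and both fibroblast and macrophage markers were measured in every dish. With vehicle Col3a1 gave 6378.5 and Vim 5712.4, and Lyz2 gave 5605.6 and Cd14 4308. Which cells gave each chemokine signal was not tested.

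**Figure D1:**
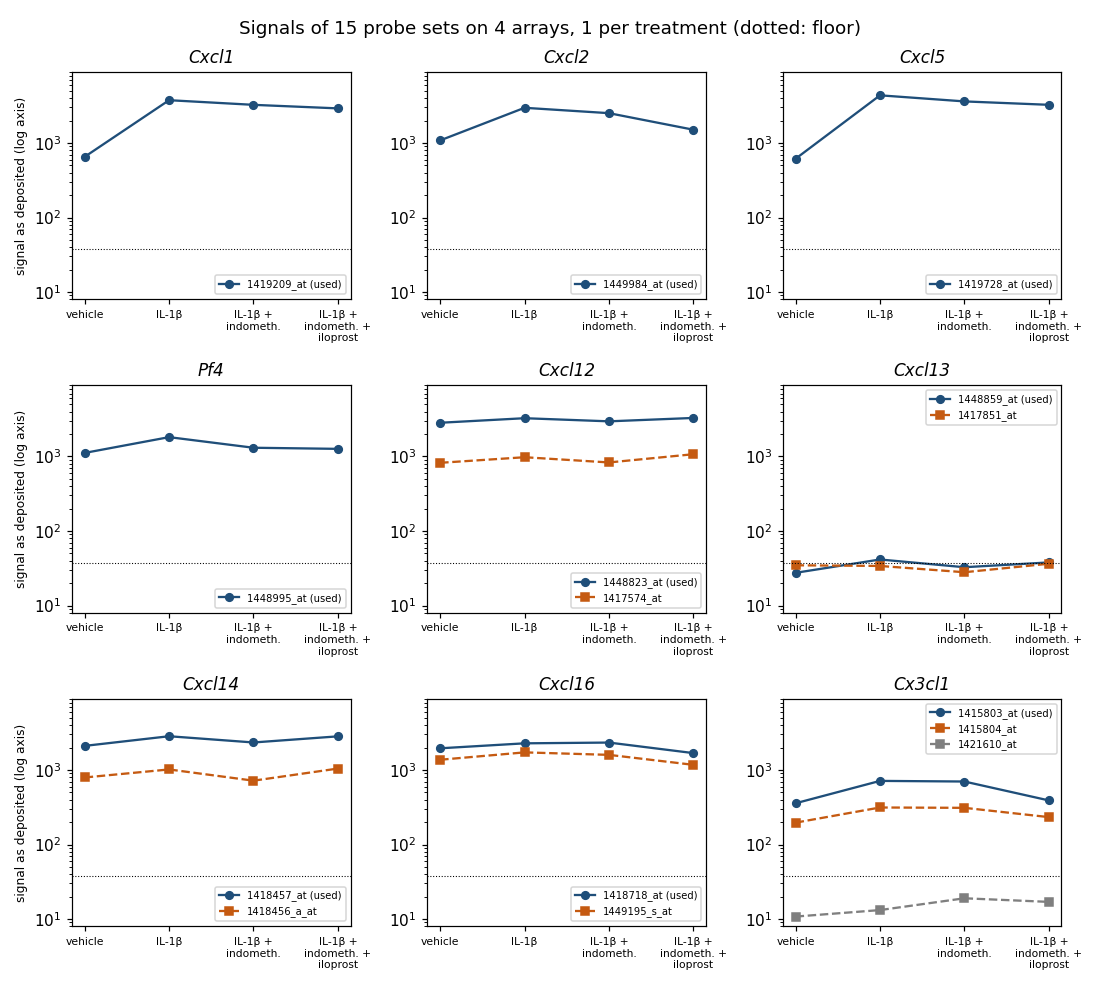
Signals as deposited (log axis) of the 15 probe sets of the 9 genes, with 1 point per treatment and array. The dotted line is the floor of 37.6. Cxcl1, Cxcl2 and Cxcl5 stand far above their vehicle signal with IL-1β, and both Cxcl13 probe sets lie at the floor.

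The neutrophil attractants stood highest with IL-1β. Cxcl1, the mouse KC chemokine, had a signal of 652.5 with vehicle, 3751 with IL-1β, 3250 with IL-1β and indomethacin and 2913 with iloprost added. Its 3 IL-1β dishes all lay well above vehicle. Cxcl5, also known as LIX, gave 614.6 with vehicle, 4360 with IL-1β, 3613 once indomethacin was added and 3252 with iloprost as well, the same order as for Cxcl1. Cxcl2, or MIP-2, gave 1083 with vehicle, 2966 with IL-1β, 2513 once indomethacin was added and 1508 with iloprost as well, so its last dish lay closer to vehicle than to IL-1β alone. Each of these 3 genes has 1 probe set, so no second probe set checks them.

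The IL-1β dish was compared with the vehicle dish, which addresses the chemokine response to the cytokine. The log2 ratio was 2.60 for Cxcl5, 2.30 for Cxcl1 and 1.23 for Cxcl2, or 6.07-fold, 4.92-fold and 2.34-fold higher. Among 6964 genes measured above the floor on at least 1 of both arrays, these ranked 16, 24 and 90 from the highest. Of the 9 genes 3 were at least 2-fold higher, against 1.72% of all genes measured, and 0 were at least 2-fold lower, against 0.56%. Over all genes that is 120 higher and 39 lower, and on the scale as deposited 195 higher and 11 lower. At 1.5-fold the count was 4, with Cx3cl1 as the fourth, against 4.65%. The 8 members above the floor on every array had a median log2 ratio of 0.62, where the median over those 6222 genes was -0.01.

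The promoters of Cxcl1 and Cxcl2 are shown because both genes passed 2-fold with IL-1β and are neighbours on chromosome 5. The sequences come from the RefSeq promoter table of build GRCm38.p6, which matched 7 of the 9 genes and has no entry for Cxcl5 and Cxcl16. Each stretch is the 150 bases before the start site on the plus strand, 5′ to 3′, and capitals mark matches to an NF-κB pattern, searched on both strands: 3 G, any 2 bases, 3 T and 2 C. The Cxcl1 stretch is chr5:90891095-90891244 and the Cxcl2 stretch is chr5:90903749-90903898.
Cxcl1: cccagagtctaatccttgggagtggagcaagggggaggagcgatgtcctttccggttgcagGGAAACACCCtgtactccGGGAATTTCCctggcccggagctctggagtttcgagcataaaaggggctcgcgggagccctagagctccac
Cxcl2: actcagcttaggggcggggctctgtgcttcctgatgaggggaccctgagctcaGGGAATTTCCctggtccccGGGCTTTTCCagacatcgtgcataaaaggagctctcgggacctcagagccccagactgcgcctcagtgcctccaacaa

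Both stretches hold 2 matches. In Cxcl1 they begin at positions -89 (minus strand) and -71 (plus strand), and in Cxcl2 at -97 and -78 (both plus strand), counted from the start site. The longest run of letters that both stretches share is gggaatttccctgg, 14 bases that contain the match at -71 in Cxcl1 and at -97 in Cxcl2. In a global alignment 94 of 124 aligned bases were identical (75.8%). The full windows searched run from 250 bases before to 50 bases after each start site. Among 32851 such windows, 535 (1.63%) held at least 1 match and 10 (0.0304%) held 2 or more. The other 5 windows of these chemokines, for Pf4, Cxcl12, Cxcl13, Cxcl14 and Cx3cl1, held 0 matches, which says only that these letters are not there. The core of the cAMP response element, TGACG, was also searched on both strands, and 20.8% of all windows hold it. Of the 7 windows of these chemokines 2 hold it: Cxcl1 at -215 and -194 and Cxcl12 at -61, all on the minus strand. The Cxcl2 window does not. A pattern for C/EBP transcription factors, TTNNGNAA with N for any base, is held by 40.7% of all windows. It was found in 3 of the 7, with Cxcl2 among them (at -236) and Cxcl1 not. None of these matches overlaps an NF-κB match. A match describes the letters and is no evidence of binding.

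The remaining members differed less from vehicle with IL-1β. Cx3cl1, or fractalkine, is made as a membrane-anchored adhesion molecule and shed as a chemoattractant for monocytes. Its brightest probe set gave 357.9 with vehicle, 714.0 with IL-1β, 700.4 once indomethacin was added and 390.7 with iloprost as well. The first and last of these lie close together, and the dishes between them stand apart from both. The log2 ratio with IL-1β was 0.77, which is 3.57 times the SD between probe sets, and a second probe set gave 0.45. The last Cx3cl1 probe set was below the floor on all 4 arrays and gives no ratio.

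Pf4, known as platelet factor 4 or Cxcl4 and made by megakaryocytes and also by tissue macrophages, gave 1117 with vehicle, 1818 with IL-1β, 1310 once indomethacin was added and 1266 with iloprost as well. The IL-1β dish alone stood apart, at a log2 ratio of 0.48 against vehicle, 2.21 times the SD between probe sets. Of 8 platelet and megakaryocyte markers with a probe set, Gp9, Gp1bb, Gp5, Treml1 and Clec1b were below the floor on every array. Itga2b passed it narrowly with vehicle (40.3) and with both drugs (40.0), and Itgb3 with both drugs (40.7). The platelet chemokine gene Ppbp, the last of the 8, gave 69.2 with IL-1β and 84.1 with iloprost added to IL-1β and indomethacin. It was below the floor with vehicle and with IL-1β and indomethacin (36.6). The 16 macrophage markers measured had a median log2 ratio of -0.10 with IL-1β, with 4 above the median gene and 12 below it; their part in the Pf4 value was not tested.

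Cxcl12, Cxcl14 and Cxcl16 were close to their vehicle level with IL-1β. Cxcl12 is the stromal ligand of Cxcr4 and Ackr3, and its brightest probe set gave 2835, 3263, 2962 and 3289 in the order vehicle, IL-1β, indomethacin and iloprost. Its log2 ratio with IL-1β was -0.02, and 0.02 by the other probe set. On the scale as deposited the first of these was 0.20, so its sign depends on the scaling. Cxcl14, a chemokine of resting epithelium and stroma, gave 2106, 2837, 2340 and 2827, with a log2 ratio of 0.20 and, by its other probe set, 0.13.

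Cxcl16 is a membrane-anchored ligand of Cxcr6 that also acts as a scavenger receptor for oxidised lipid. Its brightest probe set gave 1954.5 with vehicle, 2279 with IL-1β, 2333 once indomethacin was added and 1685 with iloprost as well, so the iloprost dish was the lowest of the 4. Its log2 ratio with IL-1β was 0.00, and 0.22 as deposited.

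Cxcl13, the B cell attractant of lymphoid stroma, was at the limit of measurement. Its brighter probe set gave 27.5, 41.5, 32.7 and 37.9, which passed the floor with IL-1β and with both drugs, and the other gave 34.7, 34.0, 28.0 and 36.4, below the floor throughout. No ratio is read from these values.

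**Figure D2:**
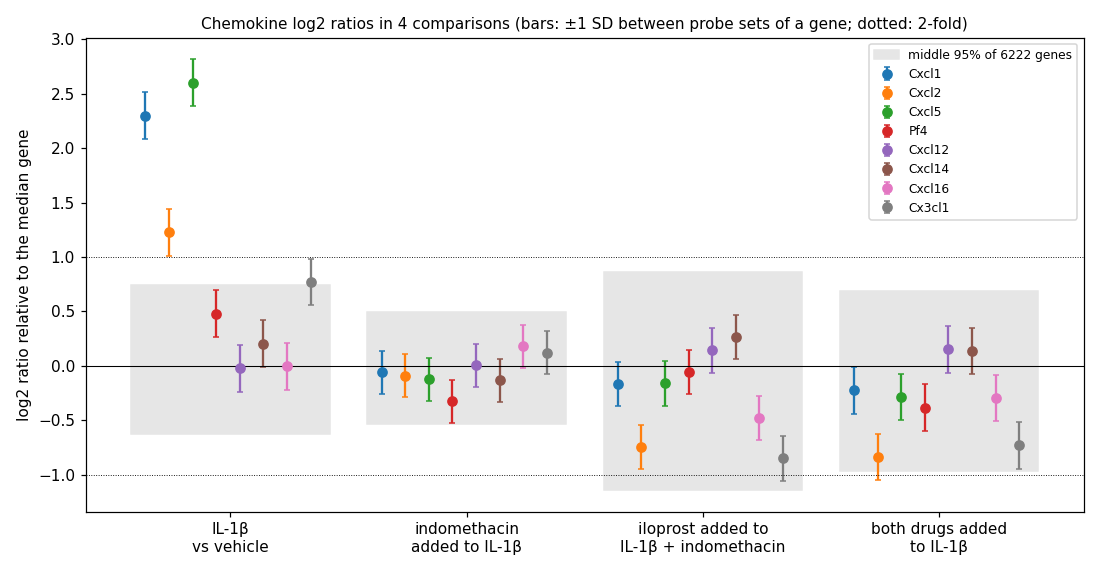
Log2 ratios relative to the median gene of the 8 members above the floor on every array, in 4 comparisons. Bars are ±1 SD between probe sets of a gene, grey boxes hold the middle 95% of 6222 genes, and dotted lines mark 2-fold. Cxcl1, Cxcl2 and Cxcl5 lie above 2-fold in the first comparison, and no member passes 2-fold in the other 3.

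Indomethacin added to IL-1β was set against IL-1β on its own, which addresses the part of the cells' own prostanoids. None of the 9 genes reached 2-fold. The share over all 6932 genes measured was also small, with 0.245% at least 2-fold higher and 0.664% at least 2-fold lower. That is 17 higher and 46 lower, and as deposited 9 and 60. The log2 ratio was -0.06 for Cxcl1, -0.09 for Cxcl2 and -0.12 for Cxcl5, each within 1 SD between probe sets (0.20 here). The lowest was Pf4 at -0.33, 1.65 times that SD, and the highest were Cxcl16 at 0.18 and Cx3cl1 at 0.12. As deposited Cxcl16 was at 0.03 and Cx3cl1 at -0.03, and the second Cxcl16 probe set gave 0.04 relative to the median gene. The second Cxcl14 probe set stood at -0.35 where the brighter one gave -0.13. The median of the 8 members was -0.08, with 3 above the median gene and 5 below it.

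Against vehicle, the IL-1β response with prostanoid synthesis blocked kept the same 3 genes past 2-fold: Cxcl5 at 2.48, Cxcl1 at 2.24 and Cxcl2 at 1.14, with Cx3cl1 at 0.89. Across all genes 1.32% of 6804 were at least 2-fold higher in that comparison. This ratio and that of IL-1β alone share the vehicle array, so they are not separate evidence.

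The dish with iloprost added to IL-1β and indomethacin was set against the dish with IL-1β and indomethacin, which addresses prostacyclin signalling where prostanoid synthesis is blocked. The attractants of neutrophils differed among themselves here. Cxcl1 and Cxcl5 stood at -0.17 and -0.16 against IL-1β with indomethacin, both within 1 SD between probe sets. Cxcl2 stood at -0.75, or 1.68-fold lower, 3.66 times that SD. The gap between Cxcl2 and Cxcl1 was -0.58 and that between Cxcl2 and Cxcl5 was -0.59, where the SD of a difference of 2 probe sets was 0.29. With 1 dish per treatment this gap could not be tested between dishes.

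Cx3cl1 stood at -0.85 by its brightest probe set, or 1.80-fold lower, and at -0.42 by its second probe set, so the direction was shared and the size was not. Cxcl16 stood at -0.48, and at -0.45 by its other probe set, 2.34 and 2.22 times the SD between probe sets. Pf4 was at -0.06. On the other side were Cxcl14 at 0.26, with 0.53 by its second probe set, and Cxcl12 at 0.14, with 0.36 by its second probe set. By the brightest probe set of each gene, the order from lowest to highest was Cx3cl1, Cxcl2, Cxcl16, Cxcl1, Cxcl5, Pf4, Cxcl12 and Cxcl14. Neighbours in that order lay closer together than the SD of a difference, except Cxcl16 and Cxcl1, which were slightly further apart. By its second probe set Cx3cl1 would come after Cxcl2 and Cxcl16.

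None of the 9 genes passed 2-fold with iloprost in this comparison. Over all 6986 genes measured, 1.98% were at least 2-fold higher and 3.19% at least 2-fold lower. At 1.5-fold, 2 of the 9 were lower, Cxcl2 and Cx3cl1, against 7.19% of all genes, though Cx3cl1 only by its brightest probe set. From the lowest of all genes measured, Cx3cl1 ranked 294 and Cxcl2 ranked 356, and both lay inside the middle 95% of the 6222 genes above the floor, which ran from -1.14 to 0.86. The median of the 8 members was -0.16, against 0.03 over those genes.

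Most macrophage markers were lower in this comparison, in which Cxcl2, Cx3cl1 and Cxcl16 were lower and Pf4 stood at -0.06. At least 2-fold lower was 1 of 16, against 3.19% of all genes, and 0 were at least 2-fold higher, against 1.98%. Of the 16 measured, 13 lay below the median gene and 3 above it, with a median log2 ratio of -0.31 and a range from -1.46 for Fcgr1 to 0.62 for Cd14. Scaled to the median gene, their signals summed to 35275 with vehicle, 34204 with IL-1β, 32296 once indomethacin was added and 29498 with iloprost as well. As deposited the sums were 35275, 39992, 34094 and 31323, so the IL-1β dish lay above vehicle on that scale. The scaled sums of the fibroblast markers were 32600, 30502, 30944 and 32835, and as deposited 32600, 35663, 32667 and 34866. In bulk RNA fewer cells of a type and less RNA per cell cannot be told apart, and the part of macrophages in the chemokine values was not tested.

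IL-1β with both drugs was also set against IL-1β alone. Cxcl2 stood at -0.84 and Cx3cl1 at -0.73, followed by Pf4 at -0.38, Cxcl16 at -0.30, Cxcl5 at -0.28 and Cxcl1 at -0.23. Cxcl12 and Cxcl14 were at 0.15 and 0.13, and as deposited at 0.01 and 0.00. Again none of the 9 passed 2-fold, against 0.95% of 7050 genes higher and 2.37% lower (67 and 167, and as deposited 44 and 220). Lower by at least 1.5-fold were 2 members, Cxcl2 and Cx3cl1, against 5.91% of all genes. The second Cx3cl1 probe set stood at -0.29, and the mean over its probe sets at -0.31, both short of 1.5-fold.

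Against vehicle, the dish with IL-1β and both drugs had Cxcl5 at 2.32 and Cxcl1 at 2.07, the 2 of 9 members at least 2-fold higher, against 2.72% of 6983 genes. Cxcl2 was at 0.39 and Cx3cl1 at 0.04 in that comparison, and Cxcl16 was below vehicle at -0.30.

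Another way to read these values is the share of the rise over vehicle that was left, on the linear signal scaled to the median gene. With indomethacin the share was 94.9% for Cxcl1, 90.2% for Cxcl5, 89.2% for Cxcl2 and 121% for Cx3cl1. As deposited these were 83.8%, 80.1%, 75.9% and 96.2%, so Cx3cl1 exceeded its IL-1β level on the scaled signal only. Pf4, whose difference with IL-1β was under 1.5-fold, kept 28.4% with indomethacin and 17.2% with both drugs. With iloprost added the share was 81.8% for Cxcl1 and 78.6% for Cxcl5, but 23.1% for Cxcl2 and 3.97% for Cx3cl1. The second Cx3cl1 probe set kept 32.03%. On the scale as deposited the shares with both drugs were 73.0%, 70.4%, 22.5% and 9.21% for Cxcl1, Cxcl5, Cxcl2 and Cx3cl1. A share also depends on the size of the rise. That was 2.34-fold for Cxcl2 and 1.71-fold for Cx3cl1, against 4.92-fold for Cxcl1 and 6.07-fold for Cxcl5. The same fold difference takes a larger share from a smaller rise, and the vehicle and IL-1β arrays enter every share.

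**Figure D3:**
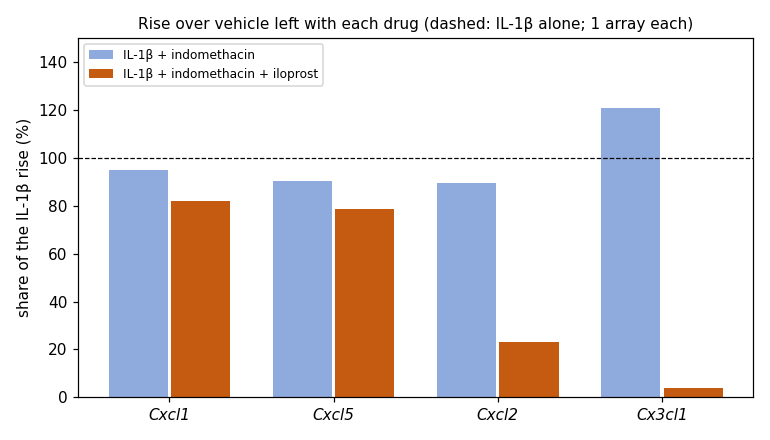
Share of the IL-1β rise over vehicle (%, linear signal scaled to the median gene) left with indomethacin and with indomethacin and iloprost, for the 4 members at least 1.5-fold higher with IL-1β. Bars come from 1 array each and start at 0. Cxcl1 and Cxcl5 keep 81.8% and 78.6% with both drugs, Cxcl2 keeps 23.1% and Cx3cl1 3.97%. The same fold difference takes a larger share from a smaller rise.

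Genes with the most similar course over the 4 arrays were found as those with the smallest root mean square difference in their 3 log2 ratios against vehicle, among 6221 other genes above the floor on every array. For Cxcl5 these were the aggrecanase gene Adamts4 at a difference of 0.06, the inducible cyclooxygenase gene Ptgs2 at 0.15 and Cxcl1 at 0.26. For Cxcl1 they were Adamts4 at 0.24, Cxcl5 at 0.26 and the uridine phosphorylase gene Upp1 at 0.31. For Cxcl2 they were the membrane glycoprotein gene Cd200 and the transcription factor gene Egr2, both at 0.19, and the netrin receptor gene Unc5b at 0.20. Cx3cl1 was nearest to Arid5a at 0.05 and to the transcription factor genes Cebpd and Rbpj, both at 0.08. All 4 arrays are shared by these profiles, so likeness in them is a description of this set of dishes.

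Cxcl12 was nearest to Pcolce, Cnpy2 and Akap1 (each at 0.02), Cxcl14 to Cnpy3 at 0.01, Dnlz at 0.02 and Clstn1 at 0.03, and Cxcl16 to Atp6v1h at 0.02, Mapkapk2 at 0.03 and Serp1 at 0.03. Pf4 was nearest to 2510039O18Rik, Tbc1d15 and Hadhb, each at 0.04. For these members every distance was below the SD between probe sets (0.20 to 0.22), so the choice of nearest genes is not firm. Cnpy3 also lay near the floor, with signals from 43.7 to 59.5.

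The listed ligands outside the 9 members include Cxcl9, Cxcl10 and Cxcl11, which bind Cxcr3 and attract T cells. They stood at -1.88, -0.38 and -0.53 with IL-1β, and at 1.04, 0.34 and 0.37 once indomethacin was added. Of the 4 listed ligands measured, Cxcl9 was the 1 at least 2-fold lower with IL-1β, against 0.56% of all genes. With indomethacin Cxcl9 was the 1 at least 2-fold higher, against 0.245%. With iloprost added to indomethacin Cxcl10 stood at -5.10, Cxcl11 at -3.97 and Cxcl9, which reached the floor, at a bound of at most -4.20. Of 6 such ligands with a probe set, Cxcl15 and Cxcl17 were below the floor on every array. With iloprost 3 of 4 measured were at least 2-fold lower, against 3.19% of all genes, and 1, Ppbp, was higher by at least 1.15, against 1.98%.

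Receptors for these chemokines were mostly below the floor. Of 11 with a probe set, 4 were above it on every array: Cxcr4, Ackr3, Cx3cr1 and Ccrl2, the last of which binds chemerin and is no signalling chemokine receptor. Cxcr2, the neutrophil receptor, gave 10.9, 1.4, 1.1 and 1.8 with vehicle, IL-1β, indomethacin and iloprost added. Ackr3, a scavenging receptor for Cxcl12, gave 192.6, 609.6, 215.9 and 685.5, high in the IL-1β dish and in the dish with both drugs and near vehicle in the dish with IL-1β and indomethacin. Its log2 ratios were 1.44 with IL-1β, -1.35 once indomethacin was added and 1.66 with iloprost as well to indomethacin. Cxcr4, the signalling receptor for Cxcl12, gave 125.0, 199.7, 86.9 and 230.9, with log2 ratios of 0.45, -1.05 and 1.40. For both genes the last 2 ratios share the array of IL-1β with indomethacin, so their opposite signs are not separate evidence. Cx3cr1, the receptor of Cx3cl1, was lowest with iloprost, at 249.7, 241.5, 164.7 and 118.6. Ccrl2 stood at -1.37 with iloprost.

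Proteases and their inhibitors were listed because some shed the anchored Cx3cl1 and Cxcl16 and others trim chemokines. Of 17 genes 13 were measured. With IL-1β 2 were at least 2-fold higher, the stromelysin Mmp3 at 1.80 and the elastase Mmp12 at 1.51, and 0 were lower, against 1.72% and 0.56% of all genes. With indomethacin 0 passed 2-fold either way, against 0.245% of all genes higher and 0.664% lower. With iloprost the metalloprotease Adam8 was higher at 1.26 and the collagenase Mmp13 lower at -1.77, 1 of 13 each way, against 1.98% and 3.19% of all genes. The sheddase Adam10 had log2 ratios of 0.31, -0.24 and 0.06 in these comparisons, and Adam17 had -0.22, 0.27 and -0.91.

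Heparan sulfate proteoglycans and the enzymes that build them hold chemokines at the cell surface. All 14 with a probe set were measured, and 0 passed 2-fold either way with IL-1β or with indomethacin. Of all genes, 1.72% were higher and 0.56% lower with IL-1β, and 0.245% and 0.664% with indomethacin. With iloprost 1 of 14 was higher, against 1.98% of all genes: the syndecan gene Sdc1 at 1.16, with signals of 655.6, 1319, 783.1 and 1761 over the 4 treatments.

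Genes that induce chemokine transcripts or shorten their life gave 22 measured of 23 with a probe set. With IL-1β 2 were at least 2-fold higher, the RNase gene Zc3h12a at 3.15 and Nfkbiz at 1.46, which encodes a nuclear IκB protein, and 0 were lower, against 1.72% and 0.56% of all genes. With indomethacin 0 passed 2-fold either way, against 0.245% of all genes higher and 0.664% lower. With iloprost 1 of 22, the IL-1 receptor gene Il1r1, was higher at 1.02, against 1.98% of all genes. The decay factor gene Zfp36, which encodes tristetraprolin, had log2 ratios of -0.10, 0.13 and -0.50.

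Of the genes for neutrophil growth factors and adhesion, 7 of 10 with a probe set were measured. With IL-1β 3 were at least 2-fold higher, Il6 at 3.71, Lcn2 at 2.88 and the granulocyte factor Csf3 at a bound of at least 1.15, against 1.72% of all genes. With indomethacin 1, Csf2, was higher at 1.76, against 0.245%. With iloprost 3 were lower, Tnf at -2.67, Csf2 at a bound of at most -2.69 and the adhesion molecule Icam1 at -1.30, against 3.19% of all genes. Among the lymphoid stroma genes, of which 5 of 10 were above the floor on at least 1 array, Tnfsf11, which encodes RANKL, was the 1 gene past 2-fold in each comparison. Its bounds were at least 2.18 with IL-1β (1.72% of all genes higher), at most -2.26 with indomethacin (0.664% lower) and at least 2.13 with iloprost (1.98% higher). Successive comparisons share an array, so these bounds are not separate evidence.

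**Figure D4:**
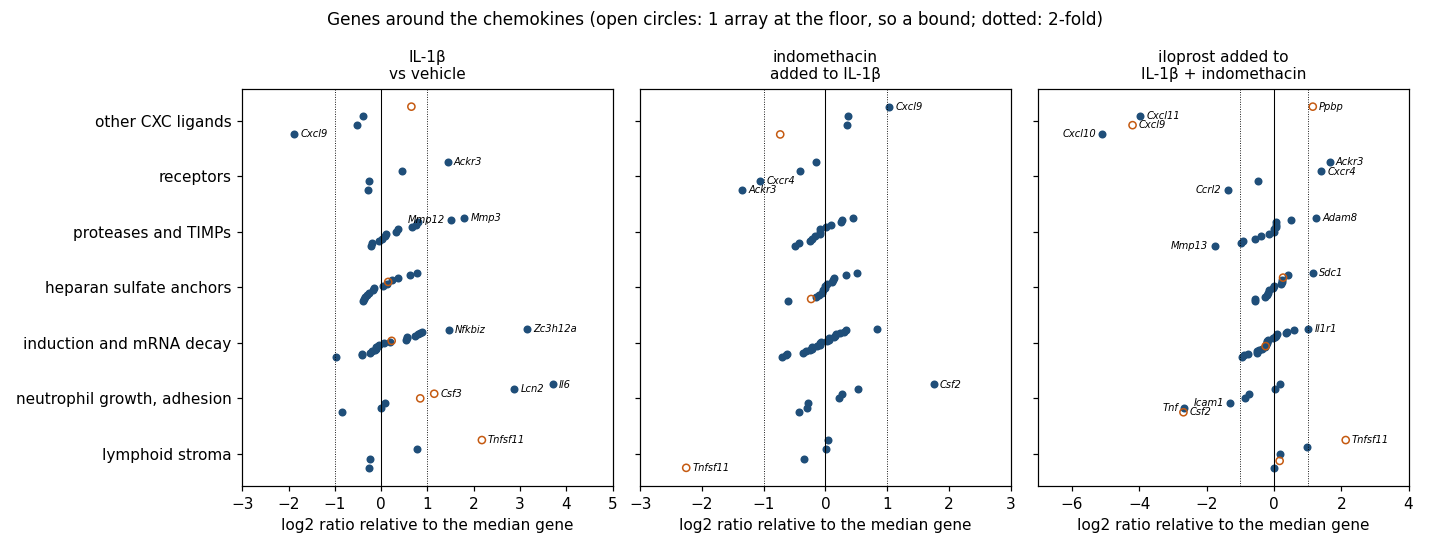
Log2 ratios relative to the median gene of the listed genes around the chemokines in 3 comparisons, with 1 point per gene and names for those past 2-fold (dotted lines). Open circles are bounds, where 1 array is at the floor. Ackr3 and Cxcr4 lie on opposite sides with indomethacin and with iloprost, 2 comparisons that share the array of IL-1β with indomethacin. Cxcl9, Cxcl10 and Cxcl11 lie far below 0 with iloprost.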

How the data were processed

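Each of the 4 samples is 1 array of a 1-colour expression microarray. The authors deposited a table of linear intensity values for 22690 probe sets. Which software summarised and scaled the probe sets is not given in the sources used here. Medians of the 4 columns ran from 35.2 to 40.6. The number of arrays, 1 per treatment, limits the precision.

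Control probe sets (64), the 691 that name several genes and those without a gene name were left out, which left 20380. Gene names come from the platform annotation, and RefSeq's gene table changed 0 of them. Signals were raised to the floor and log2 transformed. Of several probe sets of a gene, the one with the highest mean on the log2 scale was used. Ratios are relative to the median gene. A ratio is a bound where either array is at the floor. The SD between probe sets comes from at least 2337 genes with several probe sets. Calculations used Python 3.11.15, numpy 2.4.6 and pandas 2.3.3, and the script was tested on simulated data.

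The members and gene lists were chosen with earlier results of these data known. Genes named are all members, up to 3 per list and comparison with the largest ratio past 2-fold, the 3 nearest genes per member and the 2 brightest of a marker list. The other markers, Cxcr2, Cx3cr1, Adam10, Adam17 and Zfp36 were named after their values were seen. Alternatives were the floor, the scale, the choice of probe set, the genes counted and the fold.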

Additional observations from a re-analysis of the deposited data

How the results depend on the processing

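The count of members at least 2-fold higher with IL-1β was 3 under each alternative scale, floor, probe set choice and brightness filter tried. It was 4 at 1.5-fold and 2 at 3-fold, where Cxcl2 drops out. Over all genes the count higher was 120 of 6964 in the main setting and 195 of 6964 as deposited. With the floor at the 25th percentile it was 282 of 10172, and at the 65th percentile 77 of 5141. At 1.5-fold it was 324 of 6964 and at 3-fold 56 of 6964, so the share over all genes moved with the setting. At 1.5-fold, 2 members were lower with iloprost added to IL-1β and indomethacin, against 7.19% of all genes. With both drugs against IL-1β alone 2 were lower, against 5.91%. The main count was 0 in each. Of 245 member ratios recomputed, 231 differed from the main value by less than the SD between probe sets and 14 by more. Of these, 9 are the ratios of IL-1β against vehicle as deposited (Cxcl1 2.52, Cxcl2 1.45, Cxcl5 2.83 and Cx3cl1 1.00 among them), which hold the brightness difference of that array. The mean over its probe sets, which includes the one below the floor, brought Cx3cl1 to 0.34 with IL-1β and to -0.43 with iloprost. The iloprost ratio of Cxcl2 ran from -0.80 to -0.65 and that of Pf4 from -0.12 to 0.06. No paired analysis was possible because each treatment has 1 array, and no array could be left out. Signals near the floor, as for Cxcl13, give no order of treatments.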

Other observations

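Cxcl5, Ppbp, Pf4, Cxcl3, Cxcl15, Cxcl1 and Cxcl2 follow each other on chromosome 5 in RefSeq's gene order. With IL-1β the values along that order were 2.60 for Cxcl5, at least 0.65 for Ppbp, 0.48 for Pf4, 2.30 for Cxcl1 and 1.23 for Cxcl2, and Cxcl15 was below the floor on every array. Cxcl3 is not analysed here. With iloprost added to indomethacin they were -0.16 for Cxcl5, at least 1.15 for Ppbp, -0.06 for Pf4, -0.17 for Cxcl1 and -0.75 for Cxcl2.

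Camp, which encodes the antimicrobial peptide cathelicidin, gave signals of 30.7 with vehicle, below the floor, 90.7 with IL-1β, 56.4 once indomethacin was added and 110.2 with iloprost as well.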
